A study of Mus musculus with 2 samples.

Results

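Slc16a1, Slc16a3, Slc16a6, Slc16a8, Slc16a12 and Bsg were followed in single-cell RNA sequencing of newborn mouse eye cups. These genes encode 5 transporters of the monocarboxylate transporter (MCT) family and basigin, the membrane glycoprotein that several of them need. The members were picked by symbol from the 31053 genes of the matrices, and all 6 were present. The study asked what loss of the transcription factor MYRF does to the retinal pigment epithelium (RPE). There was 1 library per genotype, each a pool of 3 eye cups at postnatal day 0: controls were Myrf fl/fl and mutants Rx>cre Myrf fl/fl. In both groups the 2 copies of Myrf carry the sites that cre recombinase cuts, and only the mutant carries the Rx>cre transgene, which acts in the early eye field and so reaches both the RPE and the neural retina. Cornea, lens and optic nerve had been removed before papain dissociation.

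MCTs carry lactate, pyruvate and related acids across the plasma membrane together with protons. Photoreceptors make lactate from glucose, and the RPE, which lies between them and the choroidal blood supply, takes lactate up on its apical side through MCT1 (Slc16a1) and passes it on at its basolateral side through MCT3 (Slc16a8), a transporter found mainly in the RPE and choroid plexus. Basigin (Bsg, CD147) escorts MCT1, MCT3 and MCT4 (Slc16a3) to the membrane, MCT12 (Slc16a12) carries creatine, and MCT7 (Slc16a6) carries ketone bodies.

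The deposited matrices held 14305 control and 12222 mutant barcodes, with 79017429 and 76272867 unique molecular identifiers (UMIs, each marking 1 captured transcript), and 59 barcodes occurred in both. After quality limits and doublet removal 12514 and 10851 cells remained, with medians of 4269 and 4827 UMIs. They formed 36 clusters. The members, the RPE and melanocyte markers and some other genes named below were kept out of the clustering, but other pigment genes such as Pmel were not. The RPE-like cells, a single cluster of 522 control and 213 mutant cells, showed 6 of 10 RPE markers, among them Ttr, Rgr, Rdh5 and Rlbp1, while Rpe65, Lrat, Best1 and Cldn19 were each detected in under 2% of its cells. It also showed 6 of 8 genes of the melanocyte list, which both pigment cells share in part, and Pax3 of that list had 2 UMIs in control and 0 in mutant. It further showed 3 of 6 genes of the ciliary margin list. The RPE-like cells differed in depth, with a median of 2415.5 UMIs in control and 9955 in mutant. Levels are UMIs of a gene scaled to 1000000 UMIs of its class and library (CPM), and ratios as log2 of mutant over control with 1 CPM added. Folds, and the intervals of the log2 ratios, are of the levels without the added CPM. With 1 library per genotype no test between genotypes was possible. The 95% intervals cover counting error only, and the spread between animals is unknown.

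The start regions of the 2 members whose ratio in RPE-like cells passed 2-fold are shown first, because Slc16a8 and Slc16a12 differed in opposite directions. Each is the 250 bases before the start site that RefSeq gives, on GRCm38.p6 and on the gene's own minus strand, at chr15:79254749-79254998 for Slc16a8 and chr19:34747329-34747578 for Slc16a12. Capitals mark the letters CTGGCAC or CTGGTAC, the core that MYRF binds, searched on both strands.

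Slc16a8: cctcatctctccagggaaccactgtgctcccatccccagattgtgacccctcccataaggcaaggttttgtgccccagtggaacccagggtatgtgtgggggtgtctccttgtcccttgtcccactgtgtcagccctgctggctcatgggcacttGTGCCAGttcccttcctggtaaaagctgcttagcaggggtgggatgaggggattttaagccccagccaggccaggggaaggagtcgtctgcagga

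Slc16a12: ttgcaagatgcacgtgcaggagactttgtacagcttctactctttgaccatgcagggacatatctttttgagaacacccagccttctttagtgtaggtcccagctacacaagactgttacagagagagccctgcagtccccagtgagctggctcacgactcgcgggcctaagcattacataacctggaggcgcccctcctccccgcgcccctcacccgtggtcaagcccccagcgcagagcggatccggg

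The Slc16a8 window held 1 match, GTGCCAG on the strand shown, at position 156 counted from 1 at the 5′ end, and the Slc16a12 window held none. Of 32851 start regions of the same length, 5.93% held a match. The Slc16a1 window held none and the Slc16a3 window held 1. Of the cores bound by pigment cell factors such as MITF, CACGTG occurred at position 11 of the Slc16a12 window and once in the Slc16a1 window, against 6.02% of all start regions, and CATGTG in none of these 4 windows, against 12.3%. TAATCC, a core bound by OTX2, occurred in none of the 4, against 6.25%. A match is a run of letters and not a measured binding site.

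In RPE-like cells the basolateral transporter gene Slc16a8 was lower in the mutant, Slc16a1 was lower by less, Slc16a12 was higher, and Bsg was slightly higher. Past 2-fold, 1 of the 6 members was lower and 1 was higher, against 5.07% lower and 2.52% higher among the 11154 genes with at least 20 UMIs in RPE-like cells of both libraries together. The median log2 ratio over these genes was -0.02, so the scale itself was little shifted. Myrf, the targeted gene, had 743 UMIs (225 CPM) in control and 64 (26.5 CPM) in mutant RPE-like cells, a log2 ratio of -3.04 (interval -3.48 to -2.72). These libraries read the 3′ end of transcripts, which need not lie in the part cut out by cre, so this is no direct check of the deletion.

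Slc16a8 (ENSMUSG00000032988, chr15:79251014-79254761, minus strand) was, among the members, the transporter gene most confined to RPE-like cells. In control these cells held 4317 of its 4560 UMIs in all kept cells, 94.7% (Clopper-Pearson interval 93.98 to 95.3), although they held 4.78% of all UMIs. In mutant they held 1061 of 1138, 93.2% (interval 91.6 to 94.6). Its level in RPE-like cells was 1309 CPM (interval 1270 to 1349) in control and 439 CPM (interval 413 to 466) in mutant. The control level was 2.98-fold higher, a log2 ratio of -1.57 (interval -1.67 to -1.48). The difference was present at each depth: cells of up to 4000 UMIs had 774 CPM in control and 308 in mutant, cells over 4000 and up to 8000 UMIs had 899 and 204, and cells over 8000 UMIs had 1464 and 463.

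Slc16a8 was also followed in single RPE-like cells over 8000 UMIs, 152 in control and 116 in mutant. The median cell had 1659 CPM in control and 246 CPM in mutant, and the upper quartile of mutant cells, 756 CPM, lay below the lower quartile of control cells, 846 CPM. No UMI of Slc16a8 was found in 20 of the control cells, 13.2%, and in 33 of the mutant cells, 28.4%. Mutant cells with the most Slc16a8 reached 53 UMIs, against 69 in control. With every cell thinned to 1000 UMIs, which left out 106 control and 29 mutant cells, 53.4% of control cells (interval 48.4 to 58.2) and 22.8% of mutant cells (interval 17.0 to 29.6) had a UMI. Without thinning the shares were 64.6% and 50.7%. The thinned share in retinal progenitor-like cells, which serve as background, was 0.244% in control and 0.0506% in mutant, from 8 and 2 cells. Their median depths were 4731.5 and 4893 UMIs.

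**Figure D1:**
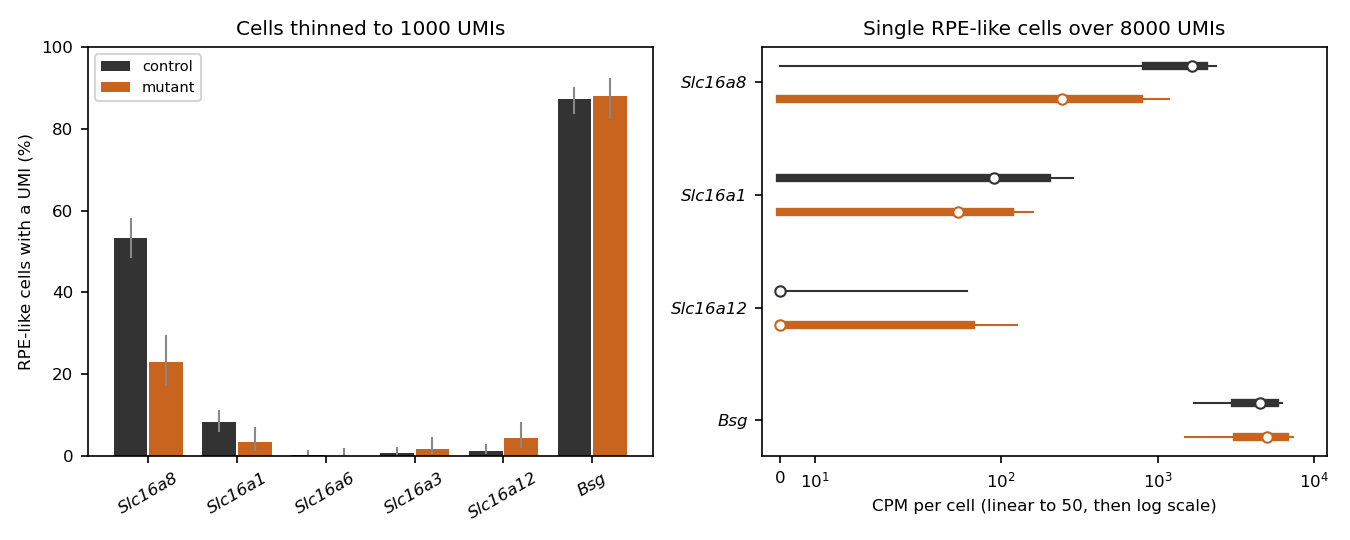
Left, percent of RPE-like cells with a UMI of each gene after thinning each cell to 1000 UMIs, with Clopper-Pearson 95% intervals, for the control and the mutant library. Right, CPM per cell in RPE-like cells over 8000 UMIs, where the circle is the median, the thick bar the quartiles and the thin line the 10th to 90th percentile. In percentage points of the thinned shares Slc16a8 separates the libraries most, at 53.4% and 22.8%, and the Bsg shares are 87.3% and 88.0%.

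Cells with and without a Myrf UMI were compared within each library among the RPE-like cells over 8000 UMIs. In mutant, 43 cells held a Myrf UMI and 73 did not, and Slc16a8 was at 477 CPM (interval 431 to 526) in the first and 454.5 CPM (interval 419 to 493) in the others. These mutant values overlapped. In control, 132 cells held a Myrf UMI and had 1575 CPM of Slc16a8, and the 20 without had 409.5 CPM (interval 332 to 499). Bsg differed in the same control cells, with 4635 and 2336 CPM, as did depth, with medians of 17064.5 and 10890 UMIs.

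Outside RPE-like cells Slc16a8 was near background, at 3.70 CPM in control and 1.24 CPM in mutant over all other kept cells. Neurogenic-like cells had 23 UMIs in control and 5 in mutant, and amacrine-like cells 13 and 5, with intervals of the ratio below 0 in both. The intervals were also below 0 in retinal progenitor-like (28 and 18 UMIs) and pericyte-like cells (8 and 0). They included 0 in mesenchyme-like (37 and 23) and photoreceptor-like cells (16 and 14). In control, white blood-like cells had 46 UMIs (26.7 CPM), but 45 of them came from 1 cell, and of the 24 UMIs of endothelial-like cells 20 came from 1 cell. Both classes had 0 UMIs in mutant, where 3 counts, the limit taken for a count of 0, equal 4.44 and 1.59 CPM. The 30 control and 18 mutant melanocyte-like cells, the other pigment cells, held 1 and 0 UMIs of Slc16a8. Of the other RPE genes, Ttr in white blood-like cells was likewise at 154 CPM in control and 1.48 CPM in mutant. The part of RNA from RPE cells in these counts was not tested.

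Slc16a1 (ENSMUSG00000032902, chr3:104638668-104658462, plus strand) was broadly detected and highest in the RPE-like cluster. There, control cells held 391 UMIs (119 CPM, interval 107 to 131) and mutant cells 160 UMIs (66.2 CPM, interval 56.4 to 77.3). The control level was 1.79-fold higher, a log2 ratio of -0.83 (interval -1.12 to -0.57). By depth the log2 ratio was -1.74 (interval -4.11 to -0.14) in cells of up to 4000 UMIs, which held 47 and 3 UMIs. It was -0.87 (interval -2.50 to 0.49) over 4000 and up to 8000, and -0.87 (interval -1.17 to -0.60) over 8000. After thinning to 1000 UMIs 8.17% of control and 3.26% of mutant cells had a UMI, against 31.8% and 35.7% without thinning, so the unthinned shares, from deeper mutant cells, ran the other way. The share in photoreceptor-like cells after thinning was 0.0880% in control and 0.419% in mutant, from only 1 and 5 cells. Among the 8 classes with at least 100 cells per library, mesenchyme-like cells came next at 24.4 and 24.3 CPM and then retinal progenitor-like cells at 14.2 and 16.0 CPM, in both libraries with intervals apart from their neighbours. Over all kept cells outside the RPE-like cluster the level was 12.6 CPM in control and 12.5 CPM in mutant, a log2 ratio of -0.01 (interval -0.16 to 0.13). Surface epithelium-like cells, a smaller class, had 10 UMIs in control and 0 in mutant.

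**Figure D2:**
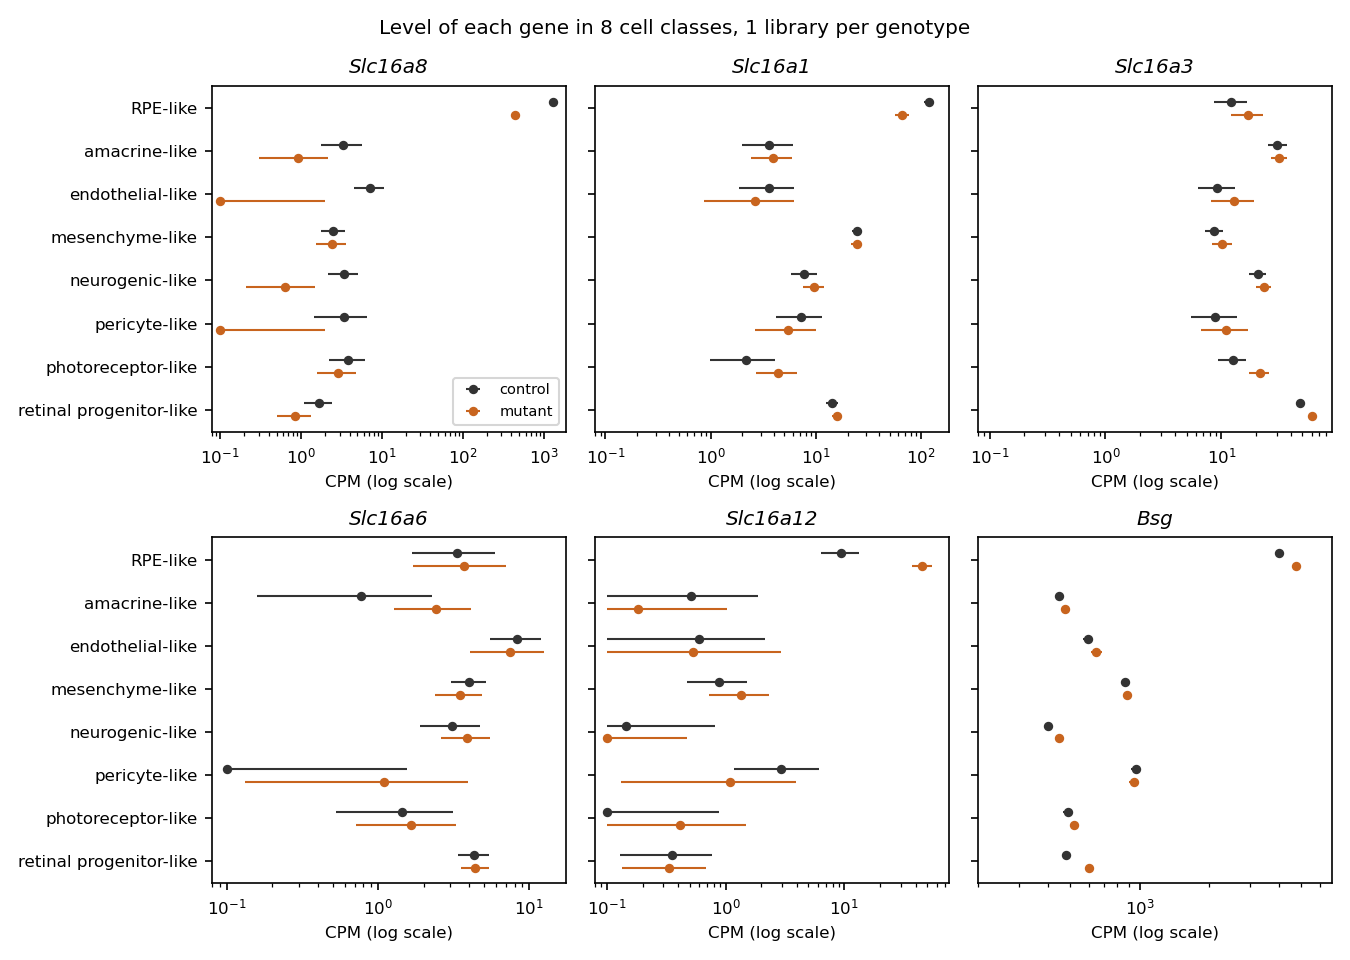
Level of each gene in CPM, on a log axis, in the 8 cell classes with at least 100 cells per library, for control and mutant, with exact Poisson 95% intervals. Values of 0 are drawn at the left edge of the axis, and the Bsg axis starts higher than the others. Slc16a8, Slc16a1, Slc16a12 and Bsg are highest in RPE-like cells in both libraries, whereas Slc16a3 is highest in retinal progenitor-like cells.

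Slc16a3 (ENSMUSG00000025161, chr11:120948480-120960868, plus strand), which encodes the lactate exporter of glycolytic cells, followed another pattern. It was highest in retinal progenitor-like cells, with 806 UMIs (47.7 CPM, interval 44.5 to 51.1) in control and 1282 UMIs (60.8 CPM, interval 57.5 to 64.2) in mutant, a log2 ratio of 0.34 (interval 0.22 to 0.48). Among the 8 classes with at least 100 cells per library, amacrine-like cells followed at 30.4 and 31.4 CPM and neurogenic-like cells at 20.6 and 23.3 CPM. Photoreceptor-like cells had 52 UMIs (12.5 CPM) in control and 103 (21.3 CPM) in mutant, a log2 ratio of 0.73 (interval 0.28 to 1.28). RPE-like cells held 40 UMIs (12.1 CPM) and 41 UMIs (17.0 CPM), and the interval of their log2 ratio of 0.45 ran from -0.18 to 1.15. In RPE-like cells with a mitochondrial share of up to 5%, which held 14 and 24 UMIs, the log2 ratio was 1.12 (interval 0.17 to 2.24). From amacrine-like cells down in mutant, and from photoreceptor-like cells down in control, each class overlapped the next. The 30 control and 18 mutant melanocyte-like cells held 1 and 7 UMIs. Slc16a3 was thus detected at a lower level in RPE-like cells than Slc16a1 or Slc16a8, in both libraries.

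Slc16a6 (ENSMUSG00000041920, chr11:109450855-109473598, minus strand) was scarce in RPE-like cells, with 11 UMIs in control (3.34 CPM, interval 1.67 to 5.97) and 9 in mutant (3.72 CPM, interval 1.70 to 7.07). The log2 ratio of 0.12 had an interval from -1.29 to 1.57, so a difference of 2-fold either way was not detectable at this depth. White blood-like cells had the highest level, 41 UMIs (23.8 CPM) in 265 control cells and 18 UMIs (26.6 CPM) in 72 mutant cells. Endothelial-like cells had 28 UMIs (8.31 CPM) and 14 UMIs (7.44 CPM). All kept cells outside the RPE-like cluster had 4.18 and 4.12 CPM, a log2 ratio of -0.02 (interval -0.27 to 0.23).

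Slc16a12 (ENSMUSG00000009378, chr19:34668403-34747289, minus strand), the creatine transporter gene, had 31 UMIs (9.40 CPM, interval 6.39 to 13.3) in control and 109 UMIs (45.1 CPM, interval 37.0 to 54.4) in mutant RPE-like cells. The mutant level was 4.80-fold higher, and the log2 ratio with 1 CPM added was 2.15 (interval without it 1.68 to 2.89). These cells held 33.7% of the gene's 92 UMIs in control and 76.2% of its 143 UMIs in mutant. Among cells over 8000 UMIs, 129 of 152 control cells and 62 of 116 mutant cells had no UMI, and the highest cells had 3 and 7. Control cells over 8000 UMIs had 11.2 CPM and mutant cells 47.5 CPM. The thinned share was 1.202% in control (5 cells, interval 0.391 to 2.78) and 4.35% in mutant (8 cells, interval 1.90 to 8.39). In retinal progenitor-like cells it was 0.0306% and 0.0506%, from 1 and 2 cells. The unthinned shares in RPE-like cells were 4.98% and 28.6%. No other class of at least 100 cells per library reached 3 CPM in either library. Surface epithelium-like cells, with fewer cells, had 13 UMIs (10.4 CPM) in control and 4 UMIs (4.74 CPM) in mutant. Pooled over all cells outside the RPE-like cluster Slc16a12 had 61 UMIs (0.928 CPM) in control and 34 (0.546 CPM) in mutant, but the classes make up different shares of the 2 libraries. In each of the 7 other classes with at least 100 cells per library the interval of the log2 ratio included 0, and mesenchyme-like cells had 13 UMIs in both (0.882 and 1.36 CPM).

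Slc16a8 and Slc16a12 were also counted in the same cells after thinning to 2000 UMIs. Of 165 mutant cells, 6 held both, 52 held Slc16a8 alone, 11 held Slc16a12 alone and 96 held neither. Of 297 control cells, 5 held both, 193 held Slc16a8 alone, 2 held Slc16a12 alone and 97 held neither. Mutant cells with a UMI of Slc16a12 thus occurred both with and without a UMI of Slc16a8. At this depth 58 of the 165 mutant cells had a UMI of Slc16a8, so a cell without one need not lack the transcript.

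Bsg (ENSMUSG00000023175, chr10:79704491-79711969, plus strand), the chaperone of MCT1, MCT3 and MCT4, was present in every class and highest in RPE-like cells. RPE-like cells held 13129 UMIs (3982 CPM, interval 3914 to 4050) in control and 11498 UMIs (4758 CPM, interval 4672 to 4846) in mutant. The log2 ratio was 0.26 (interval 0.22 to 0.29), with the mutant higher. Within depth the log2 ratio was 0.05 (interval -0.14 to 0.24) in cells of up to 4000 UMIs, -0.06 (interval -0.23 to 0.10) in cells over 4000 and up to 8000, and 0.18 over 8000 UMIs. Among the 8 classes with at least 100 cells per library, pericyte-like cells followed at 959 and 939 CPM, mesenchyme-like cells at 861 and 883 CPM, and the retinal classes lay between 401 and 601 CPM. Of the smaller classes, astrocyte-like cells (31 control, 33 mutant) had 1158 and 1164 CPM and melanocyte-like cells (30 and 18) had 996 and 1173 CPM. Retinal progenitor-like cells showed a log2 ratio of 0.32 (interval 0.28 to 0.36), from 481 to 601 CPM, so the small difference was not particular to RPE-like cells. Among RPE-like cells that held Xist but lacked Y-linked UMIs, 83 in each library, the log2 ratio was 0.03 (interval -0.03 to 0.08), and among those that held Y-linked UMIs but lacked Xist, 135 in control and 37 in mutant, it was 0.25 (interval 0.18 to 0.32). Every RPE-like cell over 8000 UMIs held Bsg in both libraries, while Slc16a8 was at 0 in 20 and 33 of them.

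**Figure D3:**
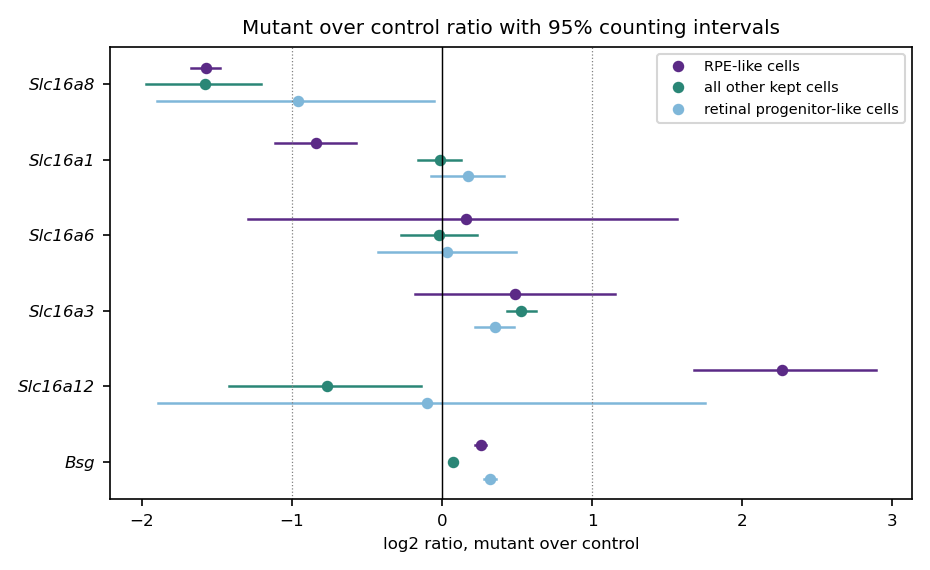
Ratio of mutant over control CPM on the log2 scale, here without added CPM, with exact 95% counting intervals, in RPE-like cells, all other kept cells and retinal progenitor-like cells. Dotted lines mark 2-fold. In RPE-like cells Slc16a8 lies below and Slc16a12 above the 2-fold lines, and the 3 intervals of Slc16a6 include 0.

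Marker lists of other cell types were summed in the RPE-like cells. Of 18 such lists the sum was lower in mutant for 13 and higher for 5, without a test. The 8 genes of the mesenchyme list, all detected in both libraries, summed to 2765 CPM in control and 330 CPM in mutant. In all other cells this list summed to 16690 and 11888 CPM. The lens list summed to 306 and 38.1 CPM, with Cryaa, Cryba1 and Cryba2 at 0 in mutant, and in all other cells to 529 and 3.83 CPM, so this difference was not particular to RPE-like cells. The surface epithelium list was higher in mutant, at 321 and 529 CPM, as were the retinal progenitor list, at 1341 and 1676 CPM, and the pericyte list, at 256 and 315 CPM. The ciliary margin list was at 917 and 976 CPM, but its genes went different ways. Gja1 was higher in mutant, at 505 and 771 CPM, and Otx1 was at 17.0 and 17.8 CPM. Wls (303 and 171 CPM), Wfdc1 (55.8 and 7.86), Zic1 (26.4 and 6.21) and Msx1 (10.6 and 2.48) were lower. Lower sums were also those of the amacrine list, at 261 and 140 CPM, the photoreceptor list, at 792 and 639 CPM, the astrocyte list, at 243 and 139 CPM, and the glia list, at 155 and 77.8 CPM. The 10 RPE markers summed to 9605 and 2530 CPM. Of these, Rgr was at 1128 and 6.21 CPM and Rpe65 at 0 in mutant, Trpm3 was at 299 and 319 CPM, Best1 had 3 UMIs in each library, and Lrat had 2 UMIs in control and 17 in mutant. The part of such transcripts in the members' ratios was not tested.

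The makeup of Slc16 family transcripts was compared next, since each UMI of a 3′ library stands for 1 transcript whatever its length. The 13 Slc16 genes considered here summed to 1673 CPM in control and 772 CPM in mutant RPE-like cells. Slc16a8 made up 78.3% of these UMIs in control (interval 77.2 to 79.4) and 56.9% in mutant (interval 54.6 to 59.1). The share of Slc16a12 was 0.562% in control and 5.84% in mutant, that of Slc16a9 11.2% and 19.6%, and that of Slc16a1 7.09% and 8.57%. These are shares of a smaller sum in mutant, where the levels of Slc16a9 and Slc16a1 were themselves lower. In retinal progenitor-like cells these genes summed to 78.7 and 94.8 CPM, and the largest shares were those of Slc16a3, 60.6% and 64.1%, and Slc16a1, 18.1% and 16.9%. In mesenchyme-like cells Slc16a1 made up 42.2% and 38.5%.

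**Figure D4:**
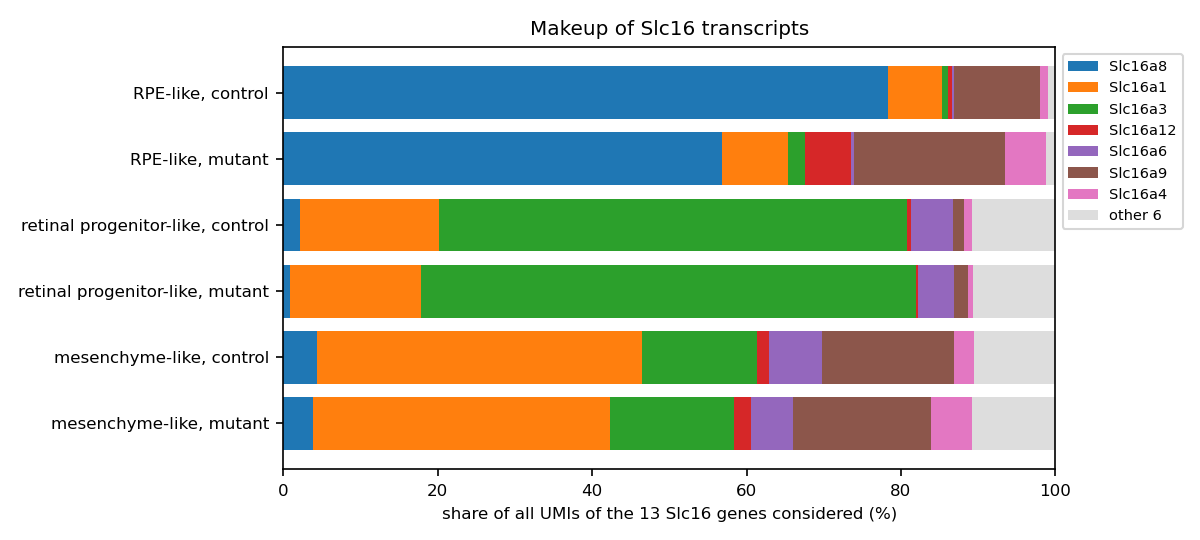
Share of each gene, in percent, of all UMIs of the 13 Slc16 genes considered in RPE-like, retinal progenitor-like and mesenchyme-like cells of the control and the mutant library. The Slc16a8 share of RPE-like cells is 78.3% in control and 56.9% in mutant, and that of Slc16a1 in mesenchyme-like cells is 42.2% and 38.5%.

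The other genes of lactate, pyruvate, glucose and creatine handling were taken as 6 lists of 43 genes, of which 29 had at least 20 UMIs in RPE-like cells. Past 2-fold, 0 of the 29 were lower and 2 were higher, Slc16a4 and Ldha, against the same 5.07% and 2.52% of all genes. Their median log2 ratio was 0.17, against -0.02 over all genes. Of the 4 other Slc16 genes with enough UMIs, 1 was higher past 2-fold. Slc16a4, an orphan transporter, had 59 UMIs (17.9 CPM) in control and 98 (40.6 CPM) in mutant, a log2 ratio of 1.14 (interval 0.70 to 1.67). In mesenchyme-like cells Slc16a4 was also higher, with 22 UMIs (1.49 CPM) and 32 UMIs (3.35 CPM). In the remaining classes with at least 100 cells per library the intervals of its ratio included 0. Slc16a9, a carnitine transporter gene, had 617 and 365 UMIs and a log2 ratio of -0.31 (interval -0.50 to -0.12), and Slc16a10, which carries aromatic amino acids, had 31 UMIs (9.40 CPM) and 11 UMIs (4.55 CPM) and a log2 ratio of -0.91 (interval -2.19 to -0.01). Its control level was 2.07-fold higher without the added CPM, so with 0.1 CPM added 1 listed gene was lower past 2-fold.

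Of the 12 measured genes that make or use lactate and pyruvate, 1 was higher past 2-fold. Ldha, the lactate dehydrogenase subunit that favours lactate formation, had 1506 UMIs (457 CPM) in control and 2335 (966 CPM) in mutant RPE-like cells, a log2 ratio of 1.08 (interval 0.99 to 1.18). Ldha was higher as well in retinal progenitor-like cells, at 647 and 943 CPM with a log2 ratio of 0.54 (interval 0.51 to 0.58), and in neurogenic-like cells, at 357 and 559 CPM. It was higher by less in photoreceptor-like (log2 ratio 0.20) and amacrine-like cells (0.23). In mesenchyme-like (239 and 237 CPM), endothelial-like (368 and 367 CPM) and pericyte-like cells (280 and 304 CPM) the intervals included 0. Ldhb, the subunit that favours lactate use, was at 535 and 465 CPM in RPE-like cells, a log2 ratio of -0.20 (interval -0.31 to -0.09). Pkm, pyruvate kinase, was at 774 and 1083 CPM, a log2 ratio of 0.48. The accessory proteins other than basigin were at lower levels: Nptn, neuroplastin, had 88.3 and 123 CPM (log2 ratio 0.48, interval 0.24 to 0.72), and Emb, embigin, 7.58 and 7.45 CPM. Slc2a1, the glucose transporter of the RPE, was at 894 and 1038 CPM (log2 ratio 0.21), and Gpi1 at 336 and 426 CPM. Slc2a1 was also higher in retinal progenitor-like (log2 ratio 0.22), photoreceptor-like (0.28) and neurogenic-like cells (0.19), and lower in endothelial-like cells (-0.22). In the creatine list 0 of 4 measured genes passed 2-fold, with Ckb, the brain creatine kinase, at 1019 and 1243 CPM, and Gamt, which makes creatine, at 28.8 and 31.0 CPM. The cyclophilins Ppia and Ppib, ligands of basigin, had log2 ratios of 0.37 and 0.18.

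**Figure D5:**
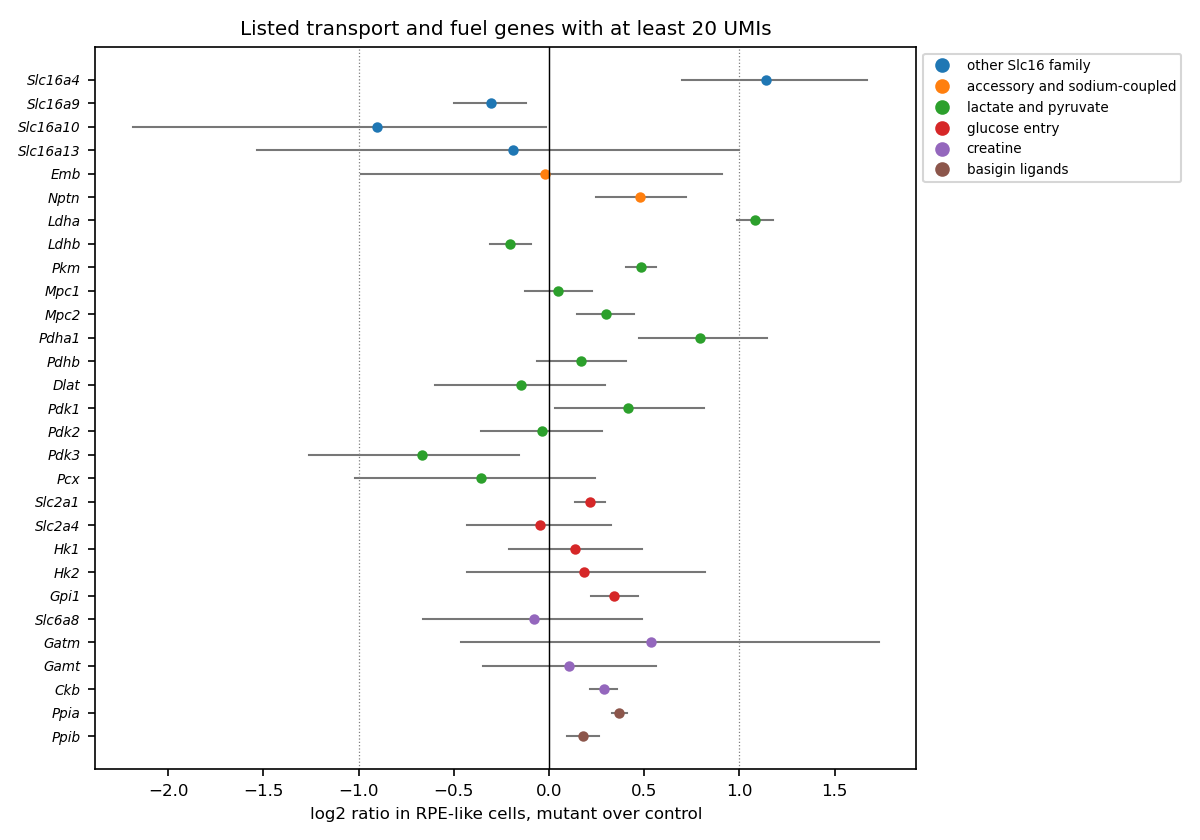
Log2 ratio of mutant over control in RPE-like cells, with exact 95% counting intervals, for the 29 listed genes with at least 20 UMIs, coloured by list. Dotted lines mark 2-fold. Slc16a4 (1.14) and Ldha (1.08) lie above the upper line and no gene lies below the lower line.

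The genes whose level was most like that of each member were found over 16 points, 8 classes in 2 libraries, by Pearson correlation of log2 CPM with 1 CPM added among 14710 genes with at least 100 UMIs. These points share libraries and depth, so the values describe likeness only. RPE-like cells were the only pigment class among the 8, as the melanocyte-like cells were too few. A gene confined to RPE-like cells is thus like pigment genes by this choice of classes. Slc16a8 was most like Pmel (r = 0.985), Dct (0.982) and Tspan10 (0.982), all genes of pigment cells, although Pmel was at 13608 CPM in control and 10471 CPM in mutant RPE-like cells. Slc16a1 was most like Slc19a2 (0.962), a thiamine transporter gene, Tyro3 (0.938) and Ide (0.932). Bsg was most like Ctsd (0.978), Slc35f3 (0.978) and Rab38 (0.970), and Slc16a12 like Apoa2 (0.961), Dhrs1 (0.956) and Slc35f3 (0.955). Slc16a3 was most like Plxnc1 (0.962), Gpr179 (0.956) and Mir670hg (0.9504), and Slc16a6 like Gm32036 (0.852), Magi3 (0.817) and Prkch (0.791). Between members, the correlation with Bsg was 0.955 for Slc16a12, 0.856 for Slc16a8 and 0.801 for Slc16a1, but -0.35 for Slc16a3 and 0.04 for Slc16a6.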

How the data were processed

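Droplet 3′ single-cell libraries were made from dissociated eye cups, 1 pool of 3 per genotype, and samples were grouped by the genotype in the labels. The authors counted UMIs with Cell Ranger (7.1.0 per the labels) on mm10 (GRCm38); the matrix headers name another software version, and the annotation and strand used in counting are not given in the sources used here. The deposited matrices hold raw counts per gene and barcode. Other ages were not analysed here. Barcodes with at least 200 genes and at most 15% mitochondrial UMIs were kept. Those with the highest doublet scores from Scrublet in scanpy were then removed (1617 control and 1176 mutant). Their number was set beforehand by an expected rate of 0.8% per 1000 barcodes, which gave 11.4% in control and 9.78% in mutant. The study states an upper limit of 2000 UMIs, which 80.2% and 92.1% of barcodes exceed; it was tried only as an alternative. Libraries were integrated in Seurat 5.3.0 under R 4.3.3 (2000 variable genes, 1979 after the members, listed genes, RPE and melanocyte markers and sex-linked genes were left out, 30 components, Louvain resolution 1). A cluster was named "-like" from at least 3 markers found in 10% of its cells and at 1.5-fold over other clusters, the candidates ranked by markers among its 10 leading genes; these cut-offs were chosen after the clusters had been seen. Counts were summed per class and library. Intervals are exact Poisson for CPM, exact conditional for ratios and Clopper-Pearson for shares (Python 3.11.15, scipy 1.17.1), and the ratio code was tested on simulated data. "Past 2-fold" is a log2 ratio of at least 1 in size with 1 CPM added. The rule named all 6 members in every class (plotted for the 8 larger classes; in the text, values outside RPE-like cells are a choice made after they were seen), Myrf, of the lists each gene past 2-fold and up to 2 more with the most UMIs, and the 3 genes most like each member; other genes were chosen after their values were seen. A further gene is not reported here and was left out of the lists and sums. Members and lists were chosen with earlier results of these data known. Positions are from GENCODE on GRCm38, where Slc16a8, Slc16a6 and Slc16a12 overlap genes of the opposite strand and Slc16a1 holds genes within its introns; start regions, matched by symbol for 4 of the 6 members, are from RefSeq. Alternatives were other filters, clusterings, scalings and thinning.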

Additional observations from a re-analysis of the deposited data

How the results depend on the processing

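The log2 ratios in RPE-like cells were recomputed under 17 alternatives, 3 of them chosen after seeing the data. Slc16a8 (-1.91 to -1.39) and Slc16a1 (-2.45 to -0.75) stayed lower in the mutant in all 17, and Slc16a12 (1.54 to 3.11) and Bsg (0.03 to 0.33) higher, by sign alone, whereas Slc16a3 turned in 1 and Slc16a6 in 5, both with intervals that included 0 at the outset. With cells of up to 2000 UMIs alone (225 control, 48 mutant) the values were -2.45 for Slc16a1, -2.32 for Slc16a3, -2.32 for Slc16a6, -1.39 for Slc16a8, 2.27 for Slc16a12 and 0.20 for Bsg, and all these intervals but that of Slc16a8 included 0. Several of these values rest on few UMIs in control and mutant: 30 and 1 for Slc16a1, 1 and 0 for Slc16a3, 1 and 0 for Slc16a6, and 2 and 2 for Slc16a12. With a mitochondrial share of up to 5% they were -1.38 for Slc16a1, -1.91 for Slc16a8, 3.11 for Slc16a12, 0.089 for Bsg and 1.12 for Slc16a3, whose interval then lay above 0 (0.17 to 2.24). Thinning to 1000 UMIs gave -1.24 for Slc16a1, -1.77 for Slc16a6 (1 UMI in control and 0 in mutant) and 0.30 for Bsg. It also gave 1 lower and 1 higher list gene past 2-fold. With 0.1 CPM added, a choice made after seeing the data, 1 list gene was lower and 2 were higher. Bsg was 0.19 over 4000 and 0.18 over 8000 UMIs. Weighting each cell equally gave -1.17 for Slc16a1 and 0.33 for Bsg. Cells with Xist alone gave -1.70 for Slc16a8 and 0.026 for Bsg (interval -0.03 to 0.08), and cells with Y-linked UMIs alone -1.74 for Slc16a8, 1.23 for Slc16a3 (interval 0.07 to 2.54) and 1.54 for Slc16a12. The cause of these shifts was not tested. At resolution 2 the RPE-like cells split into a deeper cluster (143 and 97 cells) that kept the name and a shallower one that the naming limits called melanocyte-like, and the deeper one gave -1.58 for Slc16a8 and 2.67 for Slc16a12. No paired analysis was possible because each genotype had 1 library. Slc16a6 was too scarce in RPE-like cells to show a 2-fold difference, and nothing here measures the spread between animals.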
